A study of Mus musculus with 8 samples.

Results

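miR-26a-5p and miR-26b-5p (mmu-miR-26a-5p and mmu-miR-26b-5p), the pair of mature miRNAs that make up the mouse miR-26 family, were taken from the array as the mouse miRNA features carrying exactly those names, with every probe of each. They are 2 of 1023 mouse miRNAs on the array, read by 4 probes with 20 spots each. All samples were total RNA from kidneys of the outbred mouse stock CD-1, hybridised to one-colour miRNA arrays. Mice of the tacrolimus group (4 arrays) were given 1 mg/kg of tacrolimus daily over 28 days, and those of the control group (4 arrays) physiological serum. Tacrolimus, a calcineurin inhibitor, is taken against transplant rejection and can injure the kidney, and the design asks which miRNAs differ under it. Neither age nor sex is given, nor whether each array had its own mouse, so every p-value here reflects the spread among these arrays alone, which may be technical. In whole tissue, fewer cells of a type and less RNA per cell cannot be told apart.

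A miRNA is cut from a hairpin precursor and guides Argonaute proteins to messenger RNAs that pair with its seed, bases 2 to 8. The miR-26 family is expressed in many tissues and is known for restraining growth and the cell cycle, with the histone methyltransferase gene Ezh2 among its best studied targets. miR-26a has also been studied as a restraint on fibrosis. The family lies within the genes of the small C-terminal domain phosphatases. In the RefSeq annotation of GRCm38.p6 Mir26a-1 lies within Ctdspl on chromosome 9, Mir26a-2 within Ctdsp2 on chromosome 10 and Mir26b within Ctdsp1 on chromosome 1.

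The mature sequences are shown because they decide what the array can tell apart. Both were found in the RefSeq miRNA table (GRCm38.p6), and capitals mark the seed.
miR-26a-5p: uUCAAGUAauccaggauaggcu
miR-26b-5p: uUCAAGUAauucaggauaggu
The seeds are identical, and of the 1679 mature mouse miRNAs in that table only these 2 carry it. With positions counted from the 5′ end and the miR-26a-5p base given first, the members differ by C11U and C21U and are identical at 19 positions. miR-26a-5p is 22 bases long and miR-26b-5p is 21. miR-26a-5p comes from both of its genes, so its signal is the sum of Mir26a-1 and Mir26a-2. The precursors have the 5p arm in capitals and all come from the plus strand.
Mir26a-1: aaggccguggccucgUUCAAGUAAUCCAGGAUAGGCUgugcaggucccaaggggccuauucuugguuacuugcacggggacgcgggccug
Mir26a-2: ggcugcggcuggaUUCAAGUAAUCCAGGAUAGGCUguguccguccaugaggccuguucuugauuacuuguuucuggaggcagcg
Mir26b: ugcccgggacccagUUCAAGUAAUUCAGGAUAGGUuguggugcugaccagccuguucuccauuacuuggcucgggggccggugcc

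The probes are complementary to the 3′ part of the mature strand, and capitals here mark bases opposite positions at which the members differ.
miR-26a-5p, shorter probe: AGcctatcctgGatt
miR-26a-5p, longer probe: AGcctatcctgGatta
miR-26b-5p, shorter probe: AcctatcctgAattacttg
miR-26b-5p, longer probe: AcctatcctgAattacttga
The miR-26a-5p probes have 15 and 16 bases and pair with positions 8 to 22 and 7 to 22. Against miR-26b-5p each has 2 mismatches and 1 base with no partner. Both mismatches set G of the probe opposite U, which was counted as a mismatch here and in the search below. The miR-26b-5p probes have 19 and 20 bases and pair with positions 3 to 21 and 2 to 21. Against miR-26a-5p each has 2 mismatches, both of A opposite C, so the mismatches of the 2 members' probes are not alike. No other mature miRNA of the table (1678 in the search) held a stretch within 2 mismatches of the full length of any of the 4 probes. Pairings with gaps or with an overhanging probe end, and miRNAs shorter than the probe, were not compared. How much each probe binds the other member was not tested. Per the array files, which use build mm9, the longer miR-26a-5p probe maps to chr9:118940935-118940950 and chr10:126432605-126432620, and the longer miR-26b-5p probe to chr1:74440900-74440918. The latter interval spans 19 bases, 1 fewer than the 20 bases of the probe, and is given as the files have it.

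Both members gave strong signal in every kidney sample. Of 640 spots of the 4 probes over the 8 arrays, 60 were left out as outliers, and all 580 kept spots were well above background, with none (0) saturated. Spots of one probe on one array varied by 1.5% to 7.47% (coefficient of variation), so the standard error of a probe's mean was 0.0056 to 0.025 on the log2 scale.

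Before arrays were scaled, the longer miR-26a-5p probe had a processed intensity of 8560, 5880, 5109 and 6074 on control arrays 1 to 4. On tacrolimus arrays 1 to 4 it stood at 8121, 7936, 5684 and 7247. Array 3 was the dimmest of both groups and array 1 the brightest. The longer miR-26b-5p probe had 3621, 2457, 2012 and 2422 on control arrays 1 to 4. It had 3240, 3348, 2396 and 3038 on tacrolimus arrays 1 to 4, with array 3 again the dimmest of both groups. The members' unscaled log2 intensities correlated at r = 0.99 over the 8 arrays, as a description of values that share each array's brightness.

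**Figure D1:**
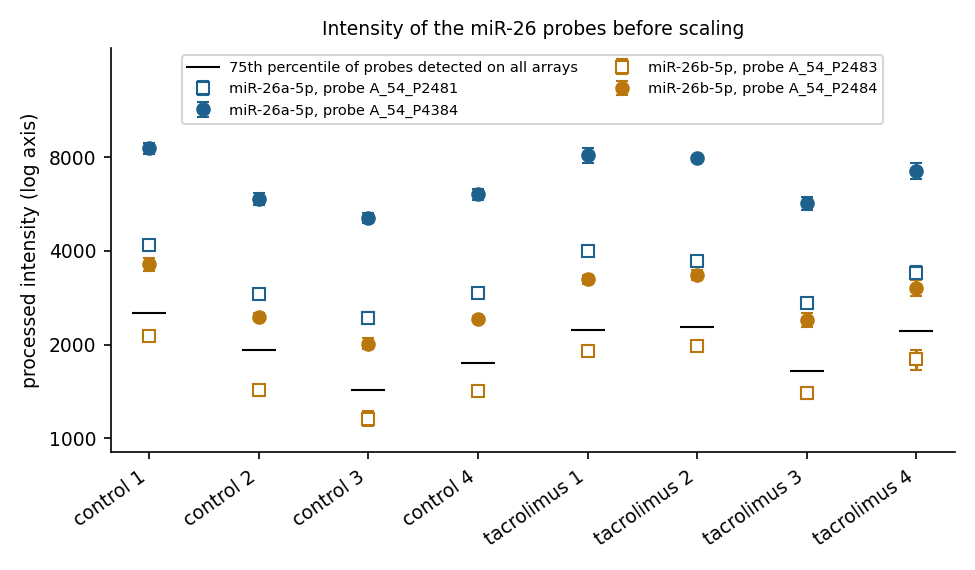
Processed intensity (log axis) of the 4 miR-26 probes on each of the 8 arrays, as the mean of the kept spots with their SD. Black dashes give the intensity by which each array was scaled (75th percentile over always-detected probes), which is lowest on control 3 (1431) and highest on control 1 (2527), as are the intensities of all 4 probes.

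For scaling, 252 probes that were detected on every array were taken, and their 75th percentile on each array was set to 0 on the log2 scale, and each miRNA was read by its brighter probe. miR-26a-5p had a scaled log2 signal of 1.76, 1.62, 1.84 and 1.80 on control arrays 1 to 4. It had 1.86, 1.81, 1.79 and 1.71 on tacrolimus arrays 1 to 4. The groups overlapped, with control 2 the lowest of all arrays and tacrolimus 1 the highest. The group means were 1.75 ± 0.096 in control and 1.79 ± 0.062 in tacrolimus kidneys (mean ± SD, n = 4 each). The difference was 0.036 on the log2 scale (SE 0.071, 95% interval -0.12 to 0.20) and was not past the threshold of an adjusted p under 0.05 (limma, adjusted p = 0.812). As a ratio this is 1.03-fold, with an interval of 0.918-fold to 1.15-fold.

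miR-26b-5p had a scaled log2 signal of 0.52, 0.36, 0.49 and 0.48 on control arrays 1 to 4. It had 0.54, 0.56, 0.54 and 0.46 on tacrolimus arrays 1 to 4. Control 2 was again the lowest array, and 3 of the 4 tacrolimus arrays lay above every control array while tacrolimus 4 did not. The means were 0.46 ± 0.070 and 0.52 ± 0.045 (mean ± SD, n = 4 each). The difference was 0.061 (SE 0.064, 95% interval -0.082 to 0.20), or 1.04-fold (0.945-fold to 1.15-fold), and it missed the threshold as well (limma, adjusted p = 0.657).

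**Figure D2:**
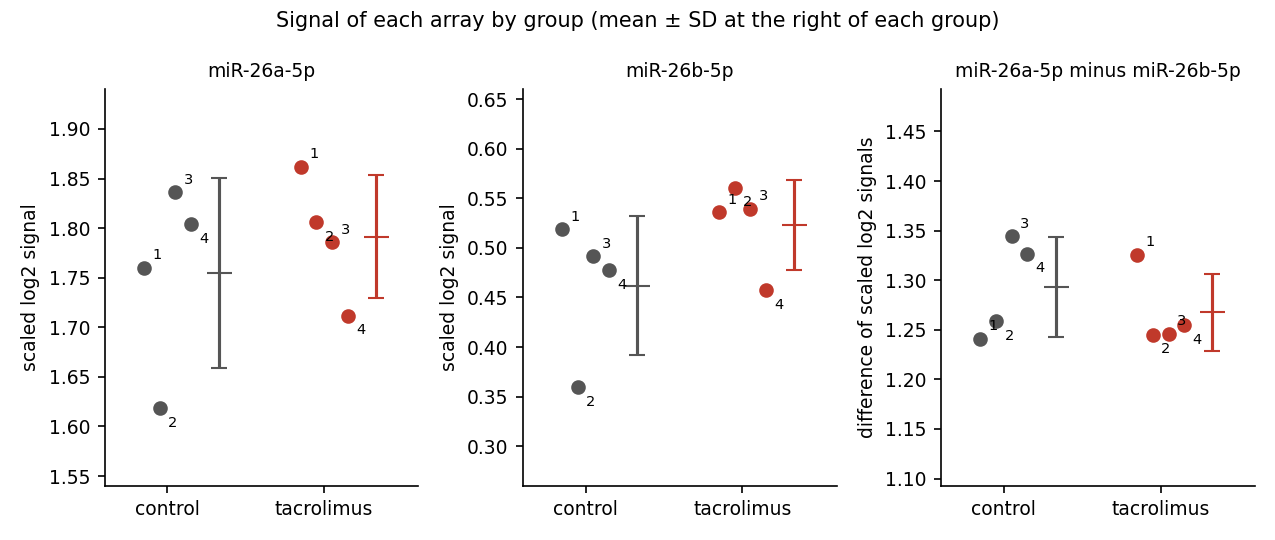
Scaled log2 signal of miR-26a-5p and miR-26b-5p on each array (points, numbered by replicate) and the difference of both signals within an array, with the mean and SD of each group (n = 4). Control and tacrolimus points overlap in all 3 panels, and control 2 is the lowest point for both miRNAs.

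Neither sign held. Leaving out an array also redrew the set of always-detected probes, and with it the scaling of the arrays left. Without tacrolimus 4, the array with the widest negative controls, miR-26a-5p stood at -0.049 and miR-26b-5p at -0.028. The median of all tested miRNAs was then -0.064, and tacrolimus 4 was itself the lowest tacrolimus array for both members. Without control 2 miR-26a-5p stood at -0.0090 (median of all tested miRNAs 0.0032). With the median of the detected probes in place of their 75th percentile the values were -0.036 and -0.011. The median of all tested miRNAs was -0.029 under that scaling.

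Of the 2 members, 0 passed the threshold of an adjusted p under 0.05 in limma, and 0 had an unadjusted p under 0.05. Over the whole array the threshold was passed by 6 of 194 tested miRNAs, or 3.09%, all of them higher after tacrolimus, and by 15.5% at the unadjusted threshold. The groups overlapped in both members, whereas 10.3% of the tested miRNAs had groups that did not overlap. A miRNA was tested if its brighter probe was detected on at least 4 arrays. The 6 differed by 0.47 to 0.69, sizes that lie outside both members' intervals as reported above. The intervals were wider without scaling, with scaling by all probes and with the authors' value table. With that table they reached 0.93 for miR-26a-5p and 0.99 for miR-26b-5p, so such sizes lay within them. That count of 6 lay between 0 and 8 under the alternatives tried. Leaving out tacrolimus 3 gave 7, control 4 or tacrolimus 2 gave 2, control 3 gave 1, and any of the other 4 arrays gave 0. The absolute difference was larger than that of miR-26a-5p for 159 of the 194 miRNAs, and larger than that of miR-26b-5p for 131. The median difference of all tested miRNAs was 0.039. miR-26a-5p lay -0.0027 from it and miR-26b-5p 0.022.

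**Figure D3:**
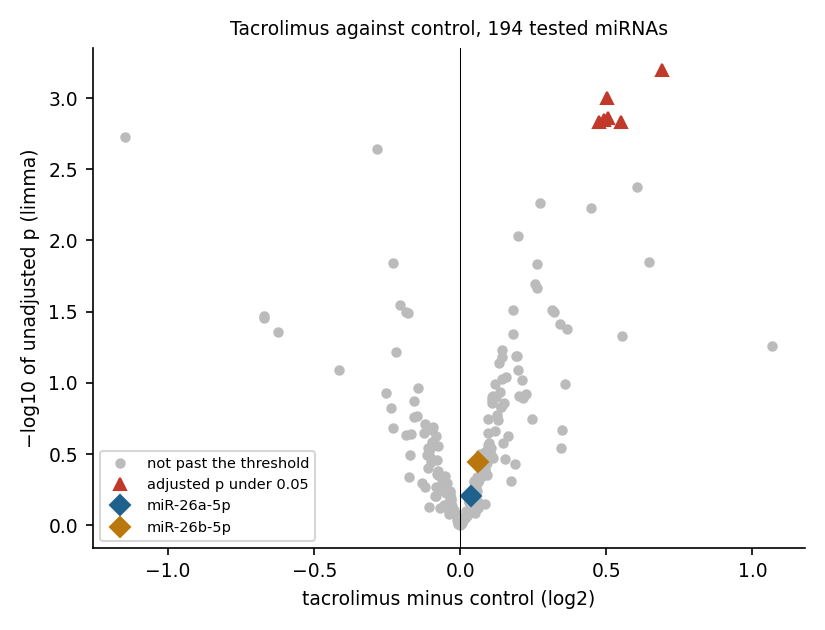
Difference between tacrolimus and control (log2, x axis) against the −log10 of the unadjusted p from limma (y axis) for the 194 tested miRNAs. Both miR-26 members (diamonds, 0.036 and 0.061) lie near the bottom centre, away from the 6 miRNAs past the threshold (triangles, 0.47 to 0.69).

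Both members were among the steadier miRNAs of these arrays. The SD over all 8 arrays, groups pooled, was 0.064 for miR-26b-5p and 0.077 for miR-26a-5p, against a median of 0.14 over the tested miRNAs. In the order of that SD they stood at places 5 and 20 of 194, counted from the smallest. The SE of the group difference was 0.064 and 0.071, against a median of 0.093. These places are a description, without a test. The medians are over all tested miRNAs, some of them near the floor, and miRNAs of like signal were not compared separately. Among other bright miRNAs the SE was 0.064 for miR-200b-3p and 0.066 for miR-30a-5p, but 0.126 for miR-21a-5p.

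The slide held the control arrays in one row and the tacrolimus arrays in the other, and row and treatment cannot be told apart. Each of the 4 slide columns held 1 array of each group. Within columns 1 to 4, tacrolimus minus control was 0.10, 0.19, -0.051 and -0.092 for miR-26a-5p. For miR-26b-5p it was 0.017, 0.20, 0.048 and -0.020. The values of a member thus lay on both sides of 0, and column 2, which holds the low control 2, had the highest for both.

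The second probe of each member gave the same picture. The shorter miR-26a-5p probe differed by 0.011 (SE 0.071, adjusted p = 0.949, limma over 357 probes), with group means of 0.71 ± 0.074 (control) and 0.72 ± 0.087 (tacrolimus). The shorter miR-26b-5p probe differed by 0.075 (SE 0.065, adjusted p = 0.652, limma), with -0.32 ± 0.079 in control and -0.24 ± 0.043 in tacrolimus kidneys (mean ± SD, n = 4 each). Of the 4 probes 0 passed the threshold, as did 0 of all 357 tested probes (0%), while 53 (14.8%) had an unadjusted p under 0.05, none (0) of them one of the 4. The offset between the probes of one member was nearly constant, with an SD over the 8 arrays of 0.029 for miR-26a-5p and 0.015 for miR-26b-5p. Control 2 was the lowest control array with each of the 4 probes.

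The members were compared with each other within each array, where the array's scaling cancels. Signals of different probes do not measure relative abundance, so only the change of this difference is read. miR-26a-5p minus miR-26b-5p was 1.24, 1.26, 1.34 and 1.33 on control arrays 1 to 4. On tacrolimus arrays 1 to 4 it was 1.33, 1.25, 1.25 and 1.25. The tacrolimus values lay within the range of the control values. The means were 1.29 ± 0.051 and 1.27 ± 0.039 (SD, n = 4 each), a difference of -0.025 between groups (exact two-sided permutation p = 0.371, where 4 against 4 allow none below 0.0286). The members' scaled signals correlated at r = 0.82 over the 8 arrays, and at 0.84 after each group's mean was taken out, a description over values that share array scaling.

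The opposite strands of the hairpins, the 3p arms, were not well above background in either group. miR-26a-1-3p, miR-26a-2-3p and miR-26b-3p have 8 probes together, and these were detected on 0 control and 0 tacrolimus arrays. Of their 867 kept spots 5 were well above background, or 0.577%. None of the 3 was tested, and no fold is given.

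The tested miRNAs whose scaled log2 signal followed that of miR-26a-5p most closely over the 8 arrays were miR-345-5p (r = 0.88), miR-26b-5p (0.82), miR-30a-3p (0.80), miR-200a-3p (0.80) and miR-181c-5p (0.77). For miR-26b-5p they were miR-1839-3p (r = 0.89), let-7c-5p (0.86), miR-24-3p (0.84), let-7a-5p (0.83) and miR-26a-5p (0.82). These are the highest of 193 correlations each over 8 arrays, are chosen for being high and carry no p. All of these miRNAs share the arrays' scaling. Besides the members themselves these are 8 miRNAs, of which 0 passed the threshold in limma and 0 had an unadjusted p under 0.05.

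Other miRNAs that share roles with miR-26 were counted in 3 lists, chosen with earlier results of these data known. Of 8 miRNAs described, like miR-26, as repressing Ezh2, 7 were tested and 1 rose, where 3.09% of all tested miRNAs rose. It was miR-214-3p, better known as raised in fibrotic tissue, at 0.69 (SE 0.137, adjusted p = 0.0476, limma). It stood in the list with its result already known and is no independent evidence. Its call was lost (0 calls in the list) without any 1 control array, without tacrolimus 1 and without tacrolimus 4. Leaving out 1 array at a time moved the list's median between -0.027 (without tacrolimus 4) and 0.15 (without control 1). The list's median was 0.089, against 0.039 for all tested miRNAs. No (0) member of any of the 3 lists fell, and none (0%) of the 194 did, although 4.64% were lower at an unadjusted p under 0.05.

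The list of fibrosis-restraining miRNAs holds the miR-29 family, which represses collagens, the miR-30 and miR-200 families of epithelia and miR-133a-3p. Of its 14 members 13 were tested, and limma gave 0 past the threshold and 0 with an unadjusted p under 0.05. The list's median was -0.045, with 9 of 13 below 0, where 79 of all 194 tested miRNAs were below 0. The list divided by family, with every miR-29 and miR-30 member and miR-200b-3p below 0. Above 0 lay miR-200a-3p, miR-200c-3p, miR-141-3p and miR-429-3p. Leaving out 1 array at a time moved it between -0.15 (without tacrolimus 4) and -0.015 (without control 3). It was -0.12 with median scaling and -0.20 without both control 1 and tacrolimus 4. The 2 of smallest p were miR-30e-5p at -0.092 (adjusted p = 0.578, limma) and miR-141-3p at 0.10 (adjusted p = 0.646, limma). Without scaling the list's median was 0.11, when that of all tested miRNAs was 0.19.

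Of 13 growth-restraining and cell-cycle-restraining miRNAs 12 were tested. The let-7 family is split between this list and the Ezh2 list, so their medians are not independent. Here stand let-7d-5p, let-7f-5p, let-7g-5p, let-7i-5p and miR-98-5p, and there let-7a-5p, let-7b-5p, let-7c-5p and let-7e-5p. None (0) passed the threshold in limma, and 4 had an unadjusted p under 0.05, where 15.5% of all tested miRNAs did. Their median was 0.069 with 10 of 12 above 0, where 115 of all 194 were above 0. The 2 of smallest p were miR-497a-5p at 0.26 (adjusted p = 0.191, limma) and miR-195a-5p at 0.26 (adjusted p = 0.244, limma), which come from one cluster and belong to the miR-15 family. With the median of the detected probes as scale the list's median was -0.0030, when that of all tested miRNAs was -0.029. Leaving out 1 array at a time moved the list's median between -0.0016 (without tacrolimus 4) and 0.15 (without control 1). That of all tested miRNAs was then -0.064 and 0.058.

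As a check of the kidney label, the tubule miRNAs miR-192-5p, miR-194-5p and miR-204-5p were detected on all 8 arrays, miR-215-5p on 0, and the liver marker miR-122-5p on 0. Of the striated muscle markers, miR-133a-3p was detected on 0 arrays and miR-1a-3p on 2, both of the tacrolimus group. Control arrays detected 157 to 199 miRNAs in all, and tacrolimus arrays 147 to 220. Leukocyte miRNAs lay higher and erythrocyte miRNAs lower in the tacrolimus group, with overlapping sums. The summed scaled signal of 4 leukocyte miRNAs (where 1 is the detected-probe 75th percentile) was 0.378 to 0.617 on control and 0.598 to 0.871 on tacrolimus arrays. That of 3 erythrocyte miRNAs was 2.09 to 5.81 and 1.88 to 2.50. No (0) single member of either list passed the threshold in limma, and 6 of these 7 had an unadjusted p under 0.05, against 15.5% of all tested miRNAs. All 3 tested tubule miRNAs lay higher in the tacrolimus group, with 1 at an unadjusted p under 0.05 (0 past the threshold in limma), and their sum was 4.44 to 4.85 on control and 4.64 to 5.44 on tacrolimus arrays. The sum of the endothelial miR-126a-3p and miR-126a-5p was 3.44 to 4.09 and 3.56 to 3.79, and that of the smooth muscle miR-143-3p and miR-145a-5p was 0.345 to 0.384 and 0.342 to 0.405. The part of these cell types in the miR-26 values was not tested.

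**Figure D4:**
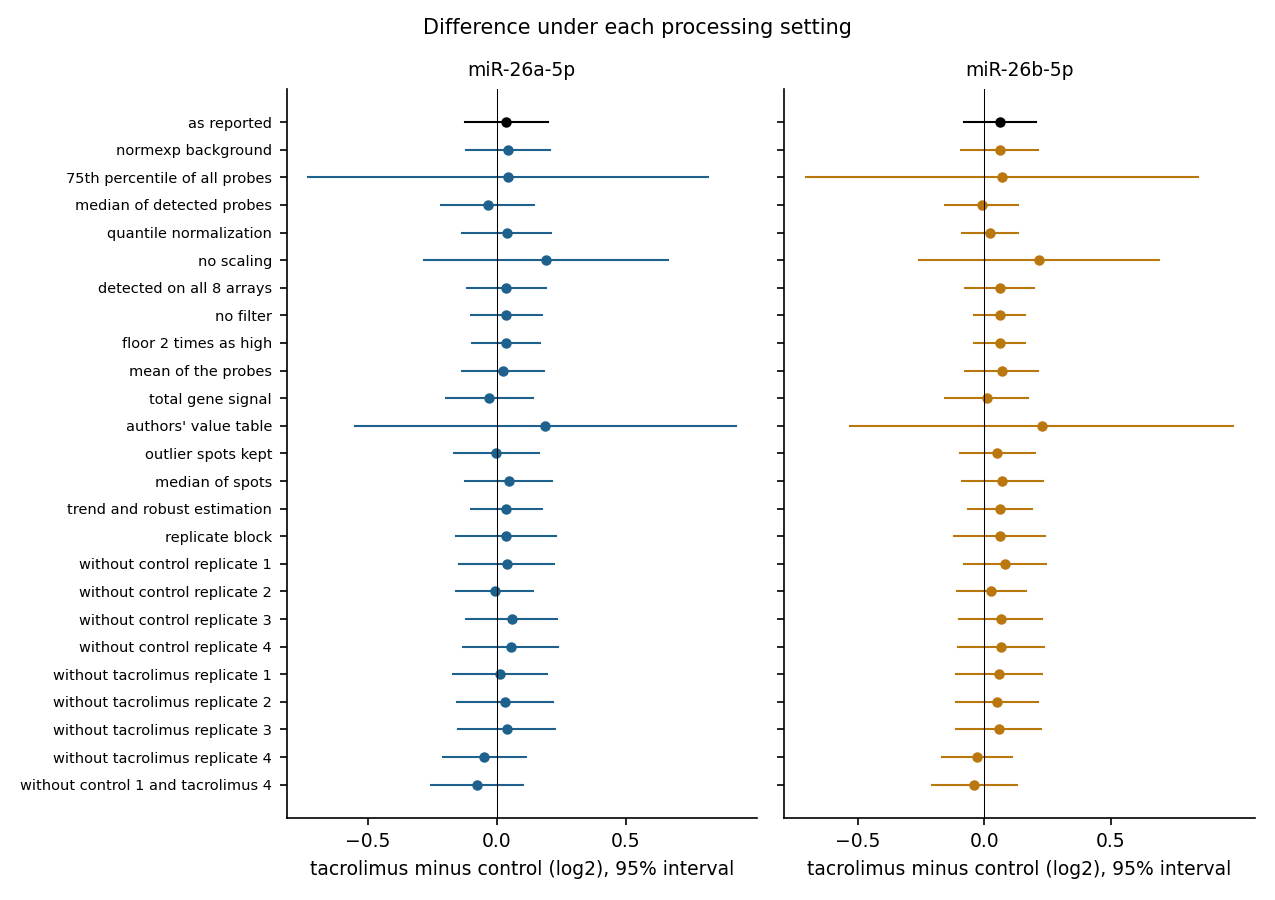
Difference between tacrolimus and control (log2, points) with its 95% limma interval (lines) for miR-26a-5p and miR-26b-5p, as reported (top) and under each of 24 alternatives. Every interval includes 0, and the widest belong to the settings with no scaling between arrays, the authors' value table and scaling by all probes.

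Under all 24 alternatives 0 of the 2 members passed the threshold in limma, and the lowest unadjusted p was 0.343 for miR-26a-5p and 0.190 for miR-26b-5p. With no scaling the differences were 0.19 and 0.22, and the median of all tested miRNAs was 0.19. The values relative to that median ranged from -0.038 to 0.070 for miR-26a-5p and from 0.0032 to 0.089 for miR-26b-5p.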

How the data were processed

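Each of the 8 samples was hybridised to a one-colour (Cy3) Agilent mouse miRNA array. The values used are the deposited processed spot intensity on a linear scale. The scanner software (Feature Extraction 10.7.3.1) had subtracted background and spatial trend, per the file headers, without scaling between arrays. The authors' deposited value table equalled that software's total gene signal, also an intensity, in 100% of cells (relative tolerance 1e-06). For limma, named in the submitters' processing notes, no version is given there.

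With R 4.3.3 and limma 3.58.1, spots marked as non-uniform or population outliers were left out and the rest averaged per probe. Detection of a probe required a share of 0.5 or more of the spots left to be well above background. Scaling was to each array's 75th percentile over 252 probes found on all arrays, floored at -5.96 (log2), and log2 was taken. The brightest probe stood for a miRNA, and 194 of 1023 miRNAs, detected on at least 4 arrays, were tested with limma (two-sided, no covariate, Benjamini-Hochberg, threshold 0.05, 9.17 degrees of freedom). Between 147 and 220 miRNAs were detected per array. Tacrolimus 4 detected the fewest and had the widest negative controls (SD 20.01), and its additive error estimate was outside the software's range. RNA input was 0.1 µg with an integrity number of 9. Precision is limited by how few arrays there are.

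The members and lists were chosen with earlier results of these data known. Named are both members, their 5 closest miRNAs by correlation, and of each list the called members or the 2 of smallest p. The limma step was tested on values simulated around the scaled signals, and the permutation test on a fixed example. Spot averaging, detection, scaling, the floor and the choice of probe were not simulated. Replicate numbers equal slide columns. Alternatives were background correction, scaling, filter, floor, probe and spot summaries, variance estimation, the replicate block and leaving out arrays.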

Additional observations from a re-analysis of the deposited data

Results flagged for a closer look

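In 10 groups of 4 arrays examined for outlying values (both members, their second probes and the difference of the members, in each group), 1 array stood apart, where chance flags about 1 group in 20. On tacrolimus 1, miR-26a-5p minus miR-26b-5p was 1.33 on the log2 scale, against a mean of 1.25 on the other 3 tacrolimus arrays. Control 3 and control 4 had like values (1.34 and 1.33).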

How the results depend on the processing

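Neither member passed the threshold under any of the 24 alternatives run. Of these, 18 kept the sign of miR-26a-5p, 21 that of miR-26b-5p and 23 that of the difference between the members. miR-26a-5p turned to -0.036 with median scaling, -0.029 with the total gene signal, -0.0029 with outlier spots kept and -0.077 without control 1 and tacrolimus 4 together. miR-26b-5p turned to -0.011 with median scaling and -0.040 without those 2 arrays. The difference between the members turned to 0.015 with quantile normalization. The shorter miR-26a-5p probe stood at -0.061 with median scaling, -0.0073 with quantile normalization, -0.015 with outlier spots kept and -0.093 without those 2 arrays, and the shorter miR-26b-5p probe at -0.013 with quantile normalization and -0.021 without those 2 arrays. The cause of these turns was not tested.

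Leaving out 1 array at a time gave -0.049 to 0.057 for miR-26a-5p and -0.028 to 0.080 for miR-26b-5p, with the lowest values without tacrolimus 4. Without that array the median of all tested miRNAs was -0.064. The difference between the members ranged from -0.044 to -0.0077, the shorter miR-26a-5p probe from -0.067 to 0.025 and the shorter miR-26b-5p probe from -0.016 to 0.10. The count of miRNAs past the threshold ranged from 0 to 7 and that of list members from 0 to 1.

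The count over the whole array was 1 with normexp (0 in the lists). In limma both counts were 0 under 11 other settings. These were unscaled arrays, scaling by all probes, the authors' value table, the total gene signal, averaged probes, the median of spots, outlier spots kept, a floor raised by a factor of 2, no detection filter, trend and robust estimation, and control 1 and tacrolimus 4 left out. Between 1 and 37 miRNAs had an unadjusted p under 0.05 there. With the replicate block the count in limma was 0 too (31 at that unadjusted p). The block changed no call of a member (0.036, adjusted p = 0.846, and 0.061, adjusted p = 0.719, limma). Same-numbered arrays correlated at 0.095 to 0.14 in their deviations from the group means, and 1 of 4 control arrays correlated best with its own number, so the numbers were not taken as pairs.

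No detection limit was computed for either member.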

Other observations

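Among the growth-restraining miRNAs, miR-34c-5p, a p53-induced miRNA, was not tested because it was detected on 0 control and 3 tacrolimus arrays. It was chosen after its values were seen, and how many other untested miRNAs had that pattern was not counted. Of its family, miR-34a-5p stood at -0.18 and miR-34b-5p at 0.31, neither past the threshold in limma. Over all mouse miRNAs, tacrolimus arrays 1 to 4 detected 210, 220, 202 and 147, and control arrays 1 to 4 detected 184, 199, 157 and 188.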
